A study of Homo sapiens with 6 samples.

Results

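Transcripts of 35 genes of fatty acid synthesis, storage and oxidation were compared between prostate cancer cells selected for growth in enzalutamide (LNCaP-enzaR) and the parental LNCaP cells. The genes were chosen by symbol from the 35554 genes of the deposited count table and were sorted into branches by the step each serves. Of the 35, 34 had enough counts to be tested. FABP5, a cytosolic fatty acid carrier, was not tested, with 0, 5 and 0 counts in the parental libraries and 0 in each LNCaP-enzaR library. FABP5 has near-identical processed copies elsewhere in the genome, and 6 of these held between 0 and 27 counts per library, so its own level is uncertain.

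The comparison asks how transcript levels of these enzymes differ between the resistant cells and the cells they came from, in bulk mRNA libraries from 3 flasks of each line. LNCaP is an established line from a lymph node metastasis of human prostate carcinoma, and enzalutamide is an inhibitor of androgen receptor signalling. LNCaP-enzaR was derived from LNCaP by continuous exposure to enzalutamide and was then kept on a lower concentration, whereas parental cells carried no such selection. Presence of the drug during harvest is not stated in the labels, so selection and drug exposure cannot be told apart. LNCaP-enzaR is a single derived line, so the p-values measure the spread between flasks of these cultures. In bulk libraries, fewer cells of a type and less RNA per cell cannot be told apart.

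Libraries held 77759122 to 98616465 counts, and 3 counts corresponded to 0.0302 to 0.0382 CPM, the counts scaled to a library of 1000000. Mitochondrially encoded genes took 6.87% ± 0.174 (SD, n = 3) of counts in parental and 15.1% ± 0.416 (SD, n = 3) in LNCaP-enzaR libraries. Without those genes the fit gave the same numbers of members past the threshold, 10 higher and 7 lower. LNCaP-enzaR replicate 1 stood apart from the other 2 libraries of its line (chi-square per degree of freedom over genes 28.2 and 35.6, against 6.97 between those 2). Values without that library are given beside FASN, ELOVL6, PNPLA2, DGAT2 and ACADM. They are not given beside every member that moved as far, ELOVL2 among them. All 9 luminal prostate markers were detected and tested, with a summed level of 5123 to 5254 CPM in parental and 3574 to 3857 CPM in LNCaP-enzaR, with 5 lower and 1 higher past the threshold. Fibroblast markers summed to 14.7 to 17.9 CPM in parental and 8.21 to 8.95 CPM in LNCaP-enzaR, where COL1A1 was lower and LUM and PDGFRB higher past the threshold (4 of 5 tested). The sums were for adipocyte markers 0.184 to 0.242 and 0.443 to 0.788 CPM (1 of 5 tested, higher), and for leukocyte markers at most 0.174 CPM in any library (0 of 4 tested). Their part in the results was not tested.

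Fatty acids are built in the cytosol from acetyl-CoA, which is carboxylated to malonyl-CoA and condensed into palmitate. Palmitate is then elongated and desaturated in the endoplasmic reticulum, and fatty acids from within or outside the cell are activated to acyl-CoA before being stored as triglyceride or burned by beta-oxidation. Prostate cancer cells are known for active lipogenesis under androgen control and for their use of fatty acid oxidation.

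Expression was read as CPM after trimmed-mean (TMM) scaling. A gene was called past the threshold at a Benjamini-Hochberg adjusted p of at most 0.05 by edgeR's quasi-likelihood test over all 19711 genes tested, with at least a 1.5-fold difference. By this rule 17 of the 34 tested members passed, against 42.7% of all genes tested. Of these, 10 were higher in LNCaP-enzaR, where 23.3% of all genes were higher, and 7 were lower, where 19.5% were. CD36 and ELOVL2 entered the test only through the line in which they were high, so they had to differ, and without them 15 of 32 passed, 9 higher and 6 lower. A further 9 members had an adjusted p within the limit but less than a 1.5-fold difference, 8 of them higher and 1 lower, and 8 had an adjusted p above it. Groups were without overlap in 28 of the 34 (82.4%), against 70.6% of all genes. The median log2 ratio of LNCaP-enzaR to parental was 0.25 over the tested members and 0.01 over all genes. Members were chosen with earlier results of these data known, so these shares are descriptive. By branch, 0 of 5 passed in palmitate synthesis, 3 of 5 in elongation, 3 of 4 in desaturation, 2 of 4 in uptake and activation, 2 of 5 in triglyceride and 7 of 11 in oxidation.

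**Figure D1:**
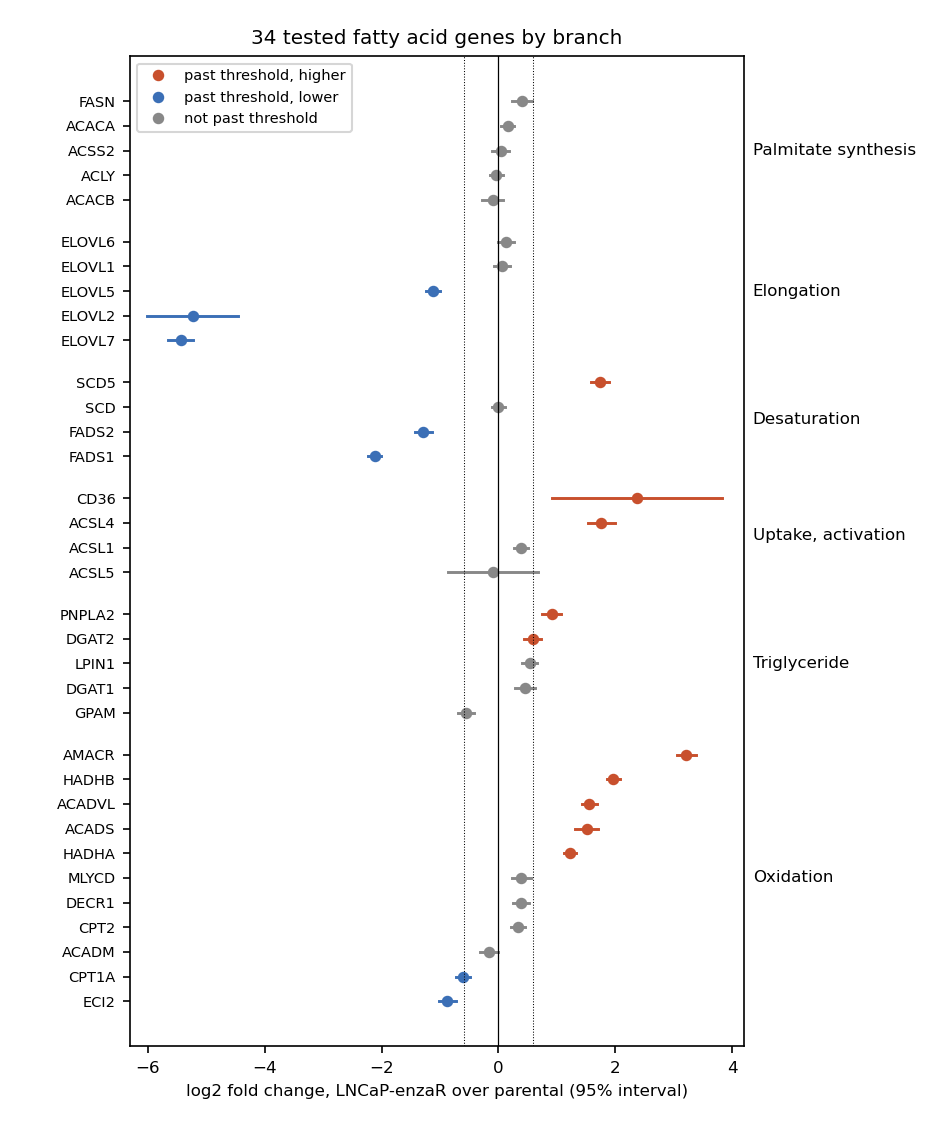
Log2 ratio of LNCaP-enzaR over parental for the 34 tested members, grouped by branch, with 95% intervals from the edgeR fit on the horizontal axis and dotted lines at 1.5-fold. The 3 lower elongases and the 2 lower desaturases lie left of zero, ELOVL7 and ELOVL2 below -5, while most oxidation genes lie right of zero.

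None of the 5 genes sorted into the palmitate synthesis branch passed the threshold. ATP citrate lyase (ACLY), which releases acetyl-CoA from citrate, stood at 576, 569 and 585 CPM in the parental libraries and at 597, 547 and 546 CPM in LNCaP-enzaR. The groups overlapped, and the log2 ratio was -0.03 (SE 0.053, 95% interval -0.15 to 0.08, adjusted p = 0.597 by edgeR). ACSS2, which makes acetyl-CoA from acetate, differed by 0.04 (interval -0.10 to 0.18), and ACACB, the mitochondrial-surface acetyl-CoA carboxylase, by -0.10 (interval -0.28 to 0.08). Each of these intervals lies within 1.5-fold in either direction. ACACA, the cytosolic carboxylase that commits carbon to lipogenesis, differed by 0.16 (SE 0.051, adjusted p = 0.0143), at 253 ± 4.18 against 282 ± 9.23 CPM (SD, n = 3 each). Its adjusted p was above 0.05 with library totals (0.0526), with the replicate block (0.0619) and without parental replicate 2 (0.0813), parental replicate 3 (0.0732) or LNCaP-enzaR replicate 3 (0.0674).

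Fatty acid synthase (FASN), which assembles palmitate, stood at 605, 624 and 634 CPM in parental and at 954, 741 and 766 CPM in LNCaP-enzaR. The groups did not overlap, and LNCaP-enzaR replicate 1 was the highest library. The log2 ratio was 0.40 (SE 0.079, interval 0.23 to 0.57, adjusted p = 4.57e-04), below the 1.5-fold limit, and 0.29 without that library.

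ELOVL7 had the lowest log2 ratio of the members. ELOVL7, an elongase of long and very long saturated chains (ENSG00000164181.14, chromosome 5, 60751791 to 60844274, GRCh38), stood at 256, 234 and 231 CPM in parental and at 4.64, 6.24 and 5.75 CPM in LNCaP-enzaR. Every LNCaP-enzaR library lay far below every parental library, and the log2 ratio was -5.43 (SE 0.098, adjusted p = 1.42e-14). The 20 nearest expressed genes around ELOVL7 had a median log2 ratio of -0.35. ELOVL2, which extends long polyunsaturated chains, held 275, 222 and 167 counts in parental and 9, 1 and 8 counts in LNCaP-enzaR. It passed the filter on low counts through the parental libraries alone, and its fitted log2 ratio of -5.23 is given as a description. The other 4 elongases had 2 lower and 0 higher past the threshold. ELOVL5, which extends shorter polyunsaturated chains, fell from 360 ± 7.12 to 166 ± 10.5 CPM (SD, n = 3 each), with a log2 ratio of -1.12 (SE 0.057, adjusted p = 4.52e-10).

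The other elongases did not pass. ELOVL1, which makes very long saturated and monounsaturated chains, stood at 142, 148 and 146 CPM in parental and at 165, 146 and 144 CPM in LNCaP-enzaR. The groups overlapped, and the difference was 0.06 on the log2 scale (interval -0.07 to 0.19, adjusted p = 0.411). ELOVL6, which extends palmitate to stearate, differed by 0.13 (interval -0.0016 to 0.27, adjusted p = 0.0759), with no overlap between groups, and by 0.19 without LNCaP-enzaR replicate 1 (adjusted p = 8.22e-04). Per kilobase of the MANE transcript, the 5 elongases together summed to 304.5, 298.5 and 296.2 CPM per kb in parental and to 177.5, 172.4 and 170.0 in LNCaP-enzaR. On that scale ELOVL1 took 33.1% ± 1.16 of the sum in parental and 59.6% ± 3.39 in LNCaP-enzaR (SD, n = 3 each), while ELOVL7 took 20.7% and 0.827%.

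The desaturases split. SCD, the main stearoyl-CoA desaturase that makes oleate, stood at 860, 817 and 823 CPM in parental and at 819, 864 and 805 CPM in LNCaP-enzaR. The groups overlapped, and the log2 ratio was -0.01 (interval -0.12 to 0.10, adjusted p = 0.917). SCD5, a second stearoyl-CoA desaturase, stood at 11.0, 12.0 and 11.6 CPM in parental and at 36.0, 40.9 and 38.4 CPM in LNCaP-enzaR. Every LNCaP-enzaR library was higher, by 1.74 on the log2 scale (SE 0.075, adjusted p = 7.15e-11). Per kilobase, SCD5 made up 2.34% of the summed SCD and SCD5 level in parental and 7.40% in LNCaP-enzaR.

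FADS1, the last desaturase on the path to arachidonate (chromosome 11, 61799627 to 61829318), stood at 297, 299 and 293 CPM in parental and at 66.0, 68.8 and 69.8 CPM in LNCaP-enzaR. FADS2, the first and rate-limiting desaturase of that path (chromosome 11, 61792980 to 61867354), stood at 844, 865 and 907 CPM in parental and at 394, 343 and 338 CPM. Neither gene's groups overlapped. FADS1 fell by 2.12 on the log2 scale (SE 0.053, adjusted p = 3.44e-13) and FADS2 fell by 1.28 (SE 0.064, adjusted p = 3.36e-10). Of their exon bases, 5.57% in FADS1 and 5.11% in FADS2 are shared with other annotated genes, each other included, and whether counting used strand is not given in the sources used here. ELOVL2, ELOVL5, FADS1 and FADS2 together serve polyunsaturated fatty acids, a grouping made after their values were seen and not tested.

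**Figure D2:**
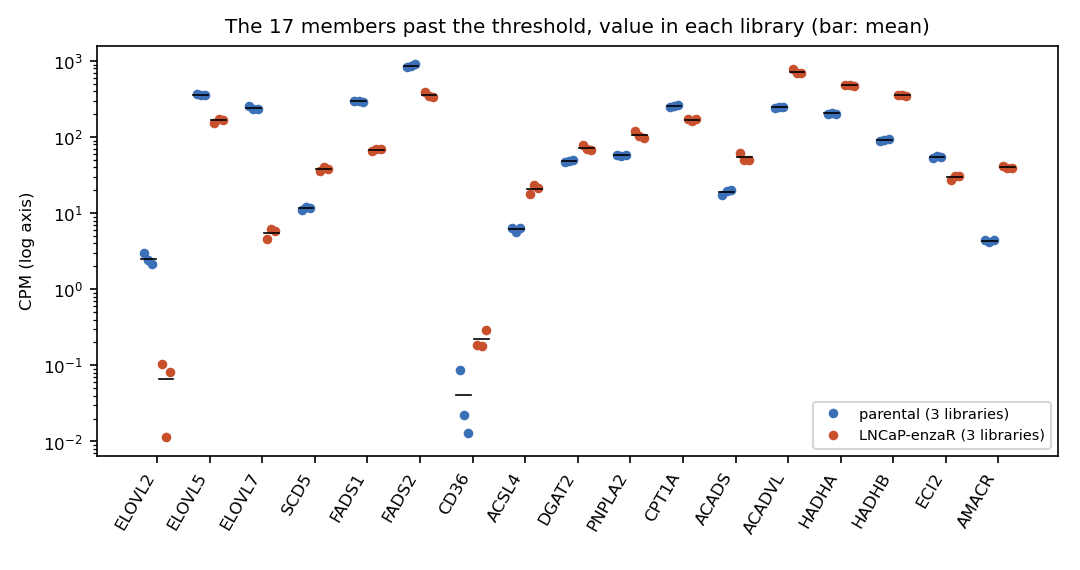
CPM on a log axis of the 17 members past the threshold, each point being 1 of the 3 parental or 3 LNCaP-enzaR libraries and each bar a group mean. ELOVL7 drops from 231 to 256 CPM to 4.64 to 6.24 CPM, and AMACR rises from 4.13 to 4.43 CPM to 39.5 to 41.3 CPM.

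**Figure D3:**
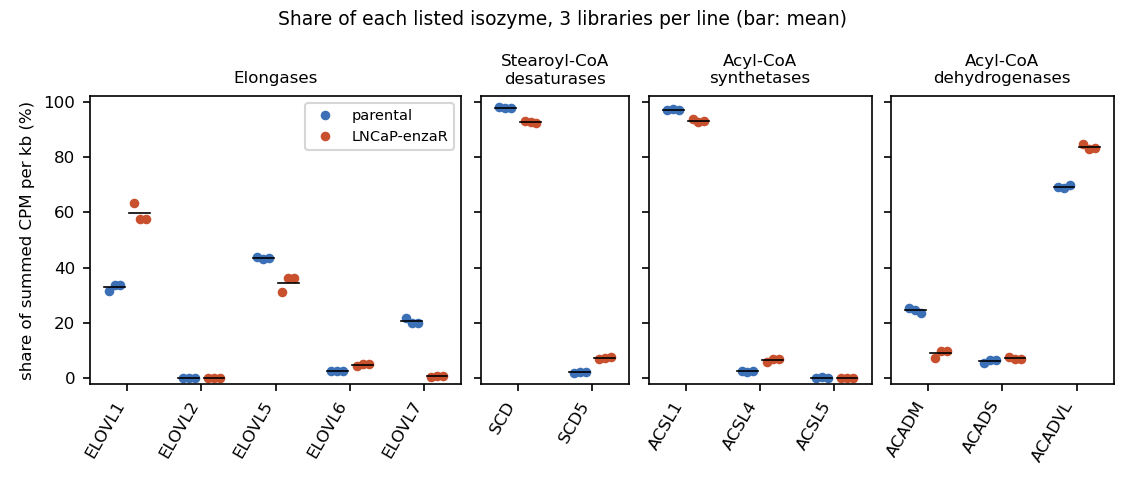
Share of the summed CPM per kilobase taken by each isozyme among the listed members of its family, in percent, each point being 1 of 3 libraries per line and each bar the mean. ELOVL1 takes 33.1% in parental and 59.6% in LNCaP-enzaR, and ACADVL 69.2% and 83.6%.

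Among uptake and activation genes, ACSL4 alone rose past the threshold of the 3 that passed the filter through both lines. ACSL4, an acyl-CoA synthetase that prefers polyunsaturated fatty acids, stood at 6.44, 5.71 and 6.39 CPM in parental and at 17.7, 23.4 and 21.7 CPM in LNCaP-enzaR, with no overlap. Its log2 ratio was 1.76 (SE 0.106, adjusted p = 2.41e-09). CD36, a membrane fatty acid receptor, was near the detection limit at 0.0864, 0.0220 and 0.0127 CPM in parental and 0.185, 0.181 and 0.292 CPM in LNCaP-enzaR. The parental libraries held 8, 2 and 1 counts and the LNCaP-enzaR libraries 16, 16 and 29. CD36 passed the filter through LNCaP-enzaR alone, and its fitted log2 ratio of 2.37, or 3.54 without parental replicate 1, is given as a description. ACSL1, a broad acyl-CoA synthetase, was higher by 0.39 (SE 0.053, adjusted p = 1.73e-05), within 1.5-fold, and ACSL5 differed by -0.09 (interval -0.86 to 0.67, adjusted p = 0.832) at under 0.6 CPM. On the per-kilobase scale ACSL4 made up 2.71% of the summed level of the 3 synthetases in parental and 6.71% in LNCaP-enzaR. That sum leaves out ACSL3, which is not a member. ACSL3 stood at 74.0 CPM per kb in parental and 14.6 in LNCaP-enzaR, against 45.3 and 59.2 for ACSL1.

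In the triglyceride branch, 2 of 5 genes passed, both higher. PNPLA2, the adipose triglyceride lipase that starts lipolysis, stood at 57.5, 57.2 and 57.4 CPM in parental and at 122, 103 and 98.2 CPM in LNCaP-enzaR. The groups did not overlap, with a log2 ratio of 0.91 (SE 0.074, adjusted p = 7.09e-08). Without LNCaP-enzaR replicate 1 it was 0.82, and 10.5% of its exon bases are shared with other genes. DGAT2, which adds the last acyl chain of triglyceride, was at 46.8, 49.2 and 49.6 CPM in parental and at 79.6, 70.6 and 68.4 CPM in LNCaP-enzaR. Its log2 ratio of 0.59 (SE 0.068, adjusted p = 2.72e-06) sat at the 1.5-fold limit and lost the call without LNCaP-enzaR replicate 1 (0.53), without parental replicate 1 (0.56), and with library totals (0.55), no filter (0.58) or a replicate block (0.58). The 20 expressed genes nearest to DGAT2 had a median of -0.80.

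The remaining triglyceride genes had an adjusted p within the limit but under 1.5-fold. LPIN1, a phosphatidate phosphatase, was higher by 0.53 (adjusted p = 1.97e-06) and DGAT1, the other acyltransferase of the last step, by 0.45 (adjusted p = 1.29e-04). GPAM, the acyltransferase of the first step of glycerolipid synthesis, was at 60.9, 60.3 and 60.4 CPM in parental and at 37.5, 43.5 and 42.6 CPM in LNCaP-enzaR, a log2 ratio of -0.55 (adjusted p = 4.16e-06). All 5 genes of this branch had groups that did not overlap.

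Beta-oxidation is the branch with the most members, and 5 of its 11 genes were higher and 2 lower past the threshold (63.6%, against 42.7% of all genes). Of 33 further oxidation genes tested, 10 were higher and 2 lower past the threshold (36.4%). The groups were without overlap for each of the 11, against 70.6% of all genes. HADHA and HADHB encode the alpha and beta subunits of the mitochondrial trifunctional protein, which carries out the last steps of each cycle on long chains. HADHA (chromosome 2, 26190635 to 26244672) stood at 201, 208 and 204 CPM in parental and at 483, 480 and 470 CPM in LNCaP-enzaR. HADHB (chromosome 2, 26243170 to 26290465) stood at 89.4, 92.9 and 93.7 CPM and at 363, 363 and 350 CPM. Both rose, by 1.22 (SE 0.050, adjusted p = 3.79e-11) and 1.96 (SE 0.053, adjusted p = 6.99e-13) on the log2 scale. Their start sites lie 307 bases apart on opposite strands.

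Chromosome 2 itself was uneven. Of its expressed genes starting at or below 91617160, 337 in number, the median log2 ratio was 0.40, and of the 453 starting at 94195806 or above it was -0.74. HADHA, HADHB and LPIN1 lie on the lower-numbered side, and the 20 expressed genes nearest HADHA had a median of 0.41. The part of this regional difference in their change was not tested.

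Acyl-CoA dehydrogenases take the first step of each cycle and differ in chain length. ACADVL, for very long chains, stood at 244, 247 and 252 CPM in parental and at 785, 692 and 703 CPM in LNCaP-enzaR. ACADS, for short chains, stood at 17.1, 19.8 and 20.1 CPM and at 62.0, 50.1 and 49.8 CPM. Both rose, by 1.55 (SE 0.059, adjusted p = 1.85e-11) and 1.51 (SE 0.093, adjusted p = 3.34e-09). ACADM, for medium chains, was at 92.8, 92.0 and 88.9 CPM and at 71.5, 86.2 and 86.1 CPM, a difference of -0.17 (interval -0.32 to -0.01, adjusted p = 0.0532). Without LNCaP-enzaR replicate 1, its lowest library, ACADM differed by -0.08 (adjusted p = 0.12), and the adjusted p was 0.0279 without replicate 2 and 0.0484 without replicate 3 of that line. Per kilobase of the MANE transcript, ACADVL took 69.2% of the 3 in parental and 83.6% in LNCaP-enzaR, and ACADM 24.6% and 9.09%. With all exons in place of that transcript, ACADM took 10.2% and 3.35%.

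AMACR, a racemase for branched-chain fatty acids that is a tissue marker of prostate cancer, had the largest rise among the members (chromosome 5, 33986165 to 34008104). It stood at 4.41, 4.13 and 4.43 CPM in parental and at 41.3, 39.5 and 39.6 CPM in LNCaP-enzaR. Every LNCaP-enzaR library lay above every parental library, by 3.21 on the log2 scale (SE 0.075, adjusted p = 1.77e-13). Of its exon bases, 72.3% are shared with other annotated genes, among them the readthrough gene C1QTNF3-AMACR, which held 1 to 20 counts in parental and 29 to 38 counts in LNCaP-enzaR. How shared reads were counted is not given in the sources used here.

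The 2 lower genes of the branch were CPT1A and ECI2. CPT1A, the malonyl-CoA-sensitive carnitine acyltransferase that admits long chains to mitochondria, stood at 249, 255 and 263 CPM in parental and at 172, 162 and 171 CPM in LNCaP-enzaR. Its log2 ratio was -0.61 (SE 0.053, adjusted p = 1.44e-07), close to the 1.5-fold limit, and the call was lost with upper-quartile scaling (-0.50), with a minimum of 10 counts per library (-0.58) and without LNCaP-enzaR replicate 2 (-0.58). The 20 nearest expressed genes had a median of -0.56. ECI2, an isomerase for unsaturated chains, was at 52.6, 56.0 and 54.1 CPM and at 27.5, 30.8 and 30.4 CPM, a log2 ratio of -0.88 (SE 0.066, adjusted p = 2.84e-08), with 29.8% of its exon bases shared with other genes. CPT2, the inner-membrane partner of CPT1A, was higher by 0.34, DECR1, a reductase for unsaturated chains, by 0.38, and MLYCD, which degrades malonyl-CoA, by 0.39, each with an adjusted p within the limit but under 1.5-fold.

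Upstream sequences are shown for the members with the largest rise (AMACR) and fall (ELOVL7), for HADHB and for PNPLA2. Motifs were searched in all 30 members with a promoter window, and PNPLA2 was the only one with the sterol motif. The bases are those before the start site that no exon of GENCODE v44 covers, from RefSeq, GRCh38.p14, 5′ to 3′ on the gene's strand. HADHB lies at chr2:26244689-26244747 on the plus strand, AMACR at chr5:34008105-34008300 on the minus strand, ELOVL7 at chr5:60844275-60844519 on the minus strand and PNPLA2 at chr11:818664-818913 on the plus strand. Capitals mark the letters of a GC box (GGGCGG) or of a sterol regulatory element (TCACNCCAC), read on either strand.
HADHB: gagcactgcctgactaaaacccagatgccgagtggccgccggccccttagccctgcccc
AMACR: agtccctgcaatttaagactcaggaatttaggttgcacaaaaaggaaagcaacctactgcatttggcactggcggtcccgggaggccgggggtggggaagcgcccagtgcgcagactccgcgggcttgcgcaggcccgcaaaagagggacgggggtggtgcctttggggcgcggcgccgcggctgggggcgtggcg
ELOVL7: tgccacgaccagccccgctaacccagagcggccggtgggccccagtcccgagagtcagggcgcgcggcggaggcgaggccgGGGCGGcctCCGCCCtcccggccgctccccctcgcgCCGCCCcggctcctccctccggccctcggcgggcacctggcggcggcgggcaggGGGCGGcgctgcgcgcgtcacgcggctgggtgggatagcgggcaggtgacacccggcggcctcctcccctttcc
PNPLA2: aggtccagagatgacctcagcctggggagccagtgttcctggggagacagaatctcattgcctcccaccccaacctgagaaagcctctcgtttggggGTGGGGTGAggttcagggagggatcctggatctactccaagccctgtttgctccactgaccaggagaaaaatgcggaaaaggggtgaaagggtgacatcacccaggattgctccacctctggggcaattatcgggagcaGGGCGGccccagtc
PNPLA2 held the letters of a sterol regulatory element at -153 from the start and ELOVL7 those of 4 GC boxes. HADHB and AMACR held neither in the bases shown. These are matches of letters alone, and binding was not tested. The HADHB bases shown end at -192, and HADHB had GC boxes nearer its start, at -64 and -28.

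Of the 35 members, 30 had a RefSeq window of 250 bases before to 50 after a start. In these windows the sterol element was found in 1 member (3.33%), against 1.13% of all 35116 windows. The E-box CACGTG was in 1 member (ELOVL5), against 7.26% of windows, and CCAAT in 8 (26.7%), against 34.6%. The GC box was in 23 (76.7%), against 45.0%, and AGAACA in 1 (CD36), against 14.8%. A PPAR element (AGGTCA repeated with 1 base between) and an LXR element (AGGTCA repeated with 4 bases between) were in 0 members, against 0.0228% and 0.0199% of windows. Each motif was sought on both strands.

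The wider pathway was read from 95 further genes, of which 86 were tested. Past the threshold were 29 higher and 13 lower (48.8%, against 42.7% of all genes), and their median log2 ratio was 0.37. This list, too, was made with earlier results of these data known, so its shares are descriptive. SLC27A6, counted among the 29 and under uptake and activation, entered the test only through LNCaP-enzaR, so it had to differ. The genes of lipid synthesis gave 2 higher and 3 lower of 13 tested, those of uptake and activation 8 and 5 of 19, those of triglyceride 9 and 3 of 21, and those of oxidation 10 and 2 of 33. Among those with a mean of 5 CPM or more, the largest falls were in ME1, a malic enzyme that supplies NADPH (67.2 ± 1.71 to 12.3 ± 1.01 CPM, log2 -2.45), and ACSL3, an acyl-CoA synthetase of lipid droplets (413 ± 16.6 to 81.6 ± 6.46 CPM, log2 -2.34). DBI, an acyl-CoA binding protein, fell by 1.75, and HSD17B12, a reductase of the elongation cycle, fell by 1.31. At the same minimum, the largest rises were PNPLA3, a lipid droplet lipase (2.03 to 8.54 CPM, log2 2.08), MGLL, which releases the last fatty acid of a glyceride (14.8 to 49.5 CPM, log2 1.74), ACSF2, an acyl-CoA synthetase (log2 1.29), and CRAT, a carnitine acetyltransferase (log2 1.23). ACSL3 and DBI lie on the higher-numbered side of chromosome 2, where the median was -0.74.

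Regulators of these branches were read next, and all 21 listed were tested, 8 higher and 5 lower past the threshold (61.9%, against 42.7% of all genes). The regulators were listed with earlier results of these data known, so this share is a description and not a test. PPARG, a nuclear receptor that drives lipid storage, rose from 4.31 ± 0.0957 to 33.2 ± 2.37 CPM (SD, n = 3 each), with a log2 ratio of 2.95 (SE 0.083, adjusted p = 1.08e-12). MLXIPL, which encodes the glucose-sensing factor ChREBP, rose by 2.19, THRSP, a lipogenic cofactor, by 2.91 at under 2 CPM, and PRKAA2, a catalytic subunit of AMP kinase, by 1.26. INSIG2 rose by 0.97, PPARD by 0.81, NR1H2 by 0.64 and PRKAA1 by 0.60. SREBF1, which encodes the main activator of lipogenic genes, stood at 218 ± 4.05 CPM in parental and 307 ± 36.8 CPM in LNCaP-enzaR, with a log2 ratio of 0.49 under the 1.5-fold limit.

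Among the lower regulators, SREBF2, the activator of cholesterol genes, fell by 0.70, and INSIG1, which retains SREBP proteins in the endoplasmic reticulum, fell by 1.31. NR1H3, the liver X receptor alpha gene, fell by 1.30, and the mitochondrial coactivators PPARGC1A and PPARGC1B fell by 1.42 and 1.43. PPARGC1A was at a low level, 0.845 CPM in parental and 0.314 CPM in LNCaP-enzaR, against 20.3 and 7.53 CPM for PPARGC1B. PPARA, SCAP, MLX and MBTPS1 had an adjusted p within the limit at log2 ratios of 0.28, 0.28, -0.18 and -0.21. For MLX the adjusted p was 0.0619 without parental replicate 2 and 0.0897 without LNCaP-enzaR replicate 3. With upper-quartile scaling it was 0.242 for MLX and 0.111 for MBTPS1. MBTPS2, MID1IP1 and ESRRA had differences of 0.02, -0.03 and 0.02, with an adjusted p above the limit.

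**Figure D4:**
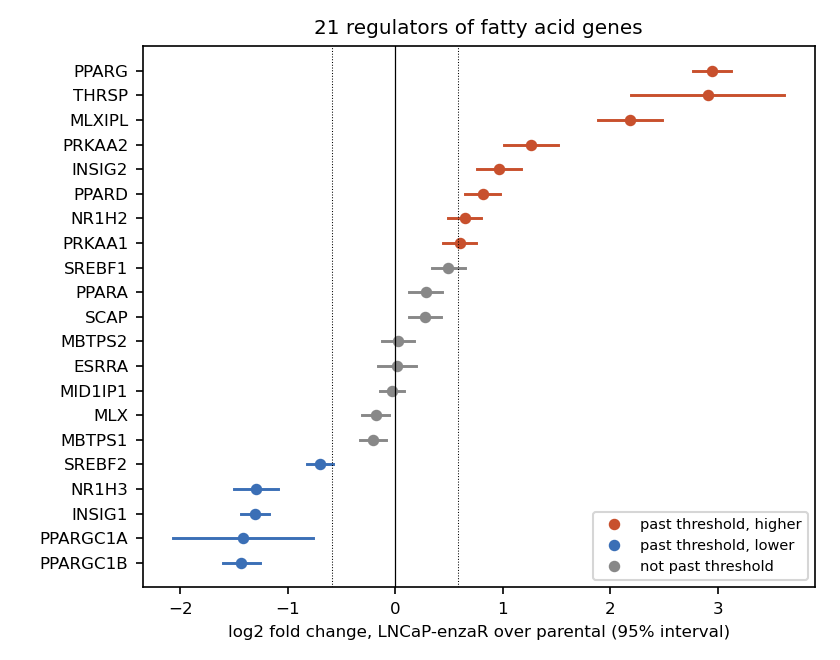
Log2 ratio of LNCaP-enzaR over parental for the 21 regulators, with 95% intervals and dotted lines at 1.5-fold. PPARG, THRSP and MLXIPL lie furthest right at 2.95, 2.91 and 2.19, and PPARGC1A and PPARGC1B furthest left.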

How the data were processed

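Gene counts were deposited by the authors as whole-number counts per gene, made by trimming with Cutadapt, alignment with STAR and counting with featureCounts per the submitters' processing notes, on GRCh38 with GENCODE 38. Strand and multimapping settings are not given in the sources used here. GENCODE 44 was used here for strand, lengths and overlaps, and 99.8% of gene identifiers were found in it, 91.4% with the same coordinates. Counts were filtered with filterByExpr, scaled by TMM and tested with edgeR 4.0.16 (robust quasi-likelihood F-test, R 4.3.3, limma 3.58.1) with no covariate, with p-values adjusted over all genes tested. DESeq2 1.42.0 was an alternative. Standard errors were derived from the F statistic. The test was checked on simulated data. Levels were compared between genes only as CPM per kilobase of the MANE transcript, and for the ACADM share also per kilobase of all exons. The text names all 35 members, every regulator tested, and of the other pathway genes the 4 highest and 4 lowest fold changes past the threshold averaging 5 CPM or more without overlap. The members and lists were chosen with earlier results of these data known. Alternatives were other scalings and filters, a replicate block, other fold limits and leaving out each library.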

Additional observations from a re-analysis of the deposited data

How the results depend on the processing

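Across the alternative scalings, filters, tool, block and left-out libraries in which each was tested, 25 of 34 members and 15 of 21 regulators kept direction and side of the 1.5-fold threshold. With a minimum of 10 counts per library, where CD36 and ELOVL2 were not tested, 9 members were higher and 5 lower. Of all 16331 genes tested with that filter, 3587 were higher and 3153 lower. With no minimum fold, 18 members were higher, and 47 other pathway genes were higher and 21 lower. At 2-fold, 8 members were higher and 5 lower, and 17 other pathway genes were higher and 8 lower. CD36, ELOVL2 and SLC27A6, which entered the test through a single line, are counted at both of these fold limits. The shares of all genes at these limits were not computed, so the counts have no background beside them. Leaving out each library in turn gave 9 to 10 higher members and 7 lower. The replicate block gave 9 higher and 7 lower members, DGAT2 being lost at 0.58. Same-numbered libraries showed no strong shared deviation (correlations -0.07, -0.00041 and -0.05 over the tested genes), which cannot exclude a pairing. Over all genes the block gave 8212 calls against 8425. Upper-quartile scaling moved the median of all genes by 0.10, and 60.9% of its calls were higher against 54.5%. It turned the sign of ACACB (0.0017), ACLY (0.0669), ACSL5 (0.0064), MID1IP1 (0.0687) and SCD (0.0942). SCD also turned with DESeq2 and with RLE size factors (0.0033 each) and with a minimum of 10 counts per library (0.0155). ESRRA and MBTPS2 turned with library totals (-0.0203 and -0.0101). Leave-one-out values ran from -0.34 to 0.13 for ACSL5, -0.0087 to 0.0662 for ACSS2, -0.0945 to 0.0839 for ESRRA, -0.0361 to 0.0910 for MBTPS2 and -0.0349 to 0.0198 for SCD. None of these 8 genes was past the threshold. GPAM passed with library totals and without LNCaP-enzaR replicate 2 (-0.59 each), LPIN1 with upper-quartile scaling (0.63) and SREBF1 likewise (0.59). NR1H2 lost its call without LNCaP-enzaR replicate 1 (0.56), and PRKAA1 with library totals (0.57) and without parental replicate 3 (0.58) or LNCaP-enzaR replicate 2 (0.53). The causes were not tested.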
